A study of Homo sapiens with 24 samples.

Results

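The regions described here were open chromatin sites that ranked among the strongest peaks of every RES-A library treated with dihydrotestosterone (DHT), of no RES-A library treated with the solvent, and of no parental LNCaP library treated with DHT or the solvent. They numbered 1050 of 117322 regions, or 0.895%. In each of the 24 peak lists the 50000 peaks of highest pileup (the number of fragments that overlap at the summit) were kept, and kept peaks of all lists that overlapped by at least 1 bp were merged into regions. A region was a member when it had a kept peak in 3 of 3 RES-A DHT lists, in 0 of 3 RES-A DMSO lists and in 0 of the 6 LNCaP DHT and DMSO lists. The members were thus chosen by the pileup ranks measured in those 12 lists, and values from these lists are given as a description, with no test. For comparison, 414 regions had the same pattern in RES-A and a kept peak in 3 of 3 LNCaP DHT lists and 0 of 3 LNCaP DMSO lists, and are called the regions opened in both sublines.

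LNCaP is a human prostate cancer cell line that depends on androgen, and RES-A is 1 subline of it that had become resistant to enzalutamide (ENZ, also written MDV), so the comparison of sublines rests on a single resistant line. Before treatment both were held for 3 days in medium with 5% hormone-depleted serum, with 10 µM ENZ in the medium of RES-A and none in that of LNCaP. All 4 RES-A groups, DMSO included, had thus been exposed to ENZ beforehand, so that in every comparison of RES-A with LNCaP the subline and this exposure cannot be told apart. Treatment for 18 h was with the solvent (DMSO), with DHT at 10 nM, with ENZ at 10 µM, or with both agents at these doses (DHT+ENZ). Each of the 8 groups had 3 biological replicates.

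DHT is the androgen that binds the androgen receptor most strongly in the prostate. The bound receptor enters the nucleus, attaches to enhancers with partner proteins such as FOXA1, and the nucleosomes around its sites are moved, which leaves the DNA accessible. ENZ competes for the hormone pocket of the receptor and hinders its entry to the nucleus and its binding to DNA. FAIRE-seq sequences the DNA that stays free of cross-linked nucleosomes and so reads such accessible sites across the genome, without showing which protein is bound there.

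The lists held 73254 to 275774 peaks. The background that the peak caller had applied, a measure of relative depth, ran from 0.406 to 5.99 reads per base, and was lowest in LNCaP ENZ replicate 1 (0.406) and LNCaP DHT replicate 1 (0.739). The pileup of the last kept peak was 28, 25 and 38 in the RES-A DHT libraries but 6 in LNCaP ENZ replicate 1, so a kept peak of that shallow library was a much smaller pile of reads. A kept peak was present at 41.4% to 42.2% of all regions in each of the 24 libraries, which makes the kept calls comparable in number.

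By the choice itself, members had a median fold enrichment (the pileup over the local background that the peak caller expected) of 8.15, 7.91 and 7.68 in the RES-A DHT libraries. In the RES-A DMSO libraries a peak of any rank was called at 83.7%, 82.7% and 88.0% of members, near the 80.9%, 81.7% and 82.8% of all regions. Its median fold enrichment at members was 4.92, 4.71 and 5.19. Most members, like most regions, thus had a called peak without androgen, at a lower height than with DHT: 810 had a peak in 3 of 3 RES-A DMSO lists and 89 had one in none. The members differed among themselves in how near they stood to the limit of rank 50000. The lowest-placed RES-A DHT peak lay beyond rank 45000 for 291 members and within rank 25000 for 127, and 298 members had a RES-A DMSO peak of rank under 60000. At the limit, chr21:33248006-33248297 (hg19, as all positions here) was inside with ranks 38224, 48356 and 49956 and fold enrichments of 8.69, 7.26 and 7.75, whereas chr5:138561811-138562351 was outside with ranks 34111, 38384 and 50003 and fold enrichments of 10.3, 10.4 and 9.38. A further 1091 regions were kept in 2 of 3 RES-A DHT lists and in none of the other 9, and 804 were kept in 3 of 3 and in 1 of the other 9.

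When the rule was applied without 1 of its libraries, the library left out gave a reading of the regions so chosen that had not been used to choose them. Of 1359, 1396 and 1486 regions chosen without RES-A DHT replicate 1, 2 or 3, the library left out kept 77.3%, 75.2% and 70.7%. For a RES-A DMSO library left out, 12.4%, 7.98% and 13.7% of the regions chosen without it were kept in it. The RES-A DHT libraries left out thus lay above the 41.4% to 42.2% of all regions kept in each library, and the RES-A DMSO libraries below it. These shares belong to different sets, each chosen for this same contrast in the other libraries of the rule. They describe how far the calls repeated and are not a test of DHT. A parental DHT library left out kept 14.0%, 9.72% and 7.57%, the first of these being the shallow replicate 1, and a parental DMSO library kept 0.850%, 0.380% and 1.41%. In the parental subline too, the libraries with DHT lay above those with DMSO, at a much lower level than in RES-A. That lower level was favoured by the choice, since these regions were still barred from the other LNCaP DHT and DMSO lists.

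**Figure D1:**
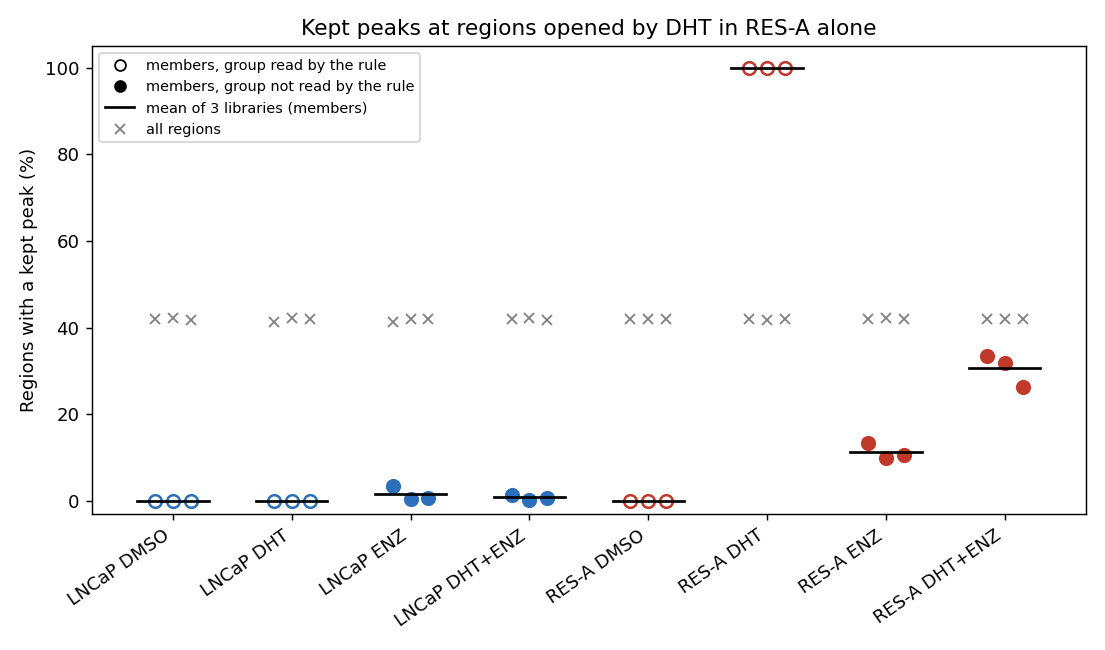
Share of the 1050 regions opened by DHT in RES-A alone that had a kept peak (y axis, percent) in each library of the 8 groups (x axis, blue LNCaP, red RES-A). Open circles are groups that the rule read and are at 0% or 100% by the choice, filled circles are groups it did not read, lines are means of 3 libraries and grey crosses are all regions. RES-A DHT+ENZ lay between 26.4% and 33.4%, above RES-A ENZ, and all LNCaP libraries with ENZ were at 3.33% or lower.

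With ENZ present, DHT was accompanied by kept peaks at more of these regions in RES-A. RES-A DHT+ENZ libraries, which the rule did not read, kept 33.4%, 31.9% and 26.4% of members (mean 30.6% ± 3.71, SD, n = 3). RES-A ENZ libraries kept 13.3%, 9.81% and 10.5% (11.2% ± 1.87, SD, n = 3), so every DHT+ENZ library was above every ENZ library. On the regions chosen without RES-A DMSO replicate 1, 2 or 3, the ENZ libraries kept 15.8%, 14.6% and 16.9% on average, above the 12.4%, 7.98% and 13.7% of the DMSO library left out. On those chosen without RES-A DHT replicate 1, 2 or 3, the DHT+ENZ libraries kept 28.0%, 26.9% and 25.3%, under the 77.3%, 75.2% and 70.7% of the DHT library left out. The choice favoured both orders. These regions were still barred from the other RES-A DMSO lists and had to be kept in the other RES-A DHT lists. The shares were not tested against each other, since the members had been chosen with results known. In LNCaP the shares were 1.43%, 0.286% and 0.667% with DHT+ENZ (0.794% ± 0.582, SD, n = 3) and 3.33%, 0.381% and 0.762% with ENZ (1.49% ± 1.61, SD, n = 3). The highest LNCaP value was that of the shallow ENZ replicate 1, and the 2 groups overlapped. The LNCaP DHT+ENZ mean was 1.39% or 1.55% where members were chosen without LNCaP DHT replicate 1 or 2. The plot of kept peaks by library shows the members beside all regions.

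At the regions opened in both sublines, the shares in RES-A DHT+ENZ were 37.2%, 30.9% and 33.1% and in RES-A ENZ 7.49%, 3.86% and 5.56%. In LNCaP they were 43.2%, 20.8% and 27.3% with DHT+ENZ and 11.4%, 3.14% and 5.31% with ENZ. The regions opened by DHT in RES-A alone thus had shares in RES-A DHT+ENZ that overlapped with those of the regions opened in both sublines, and shares in RES-A ENZ that were above them in all 3 replicates. In LNCaP DHT+ENZ the shares of the sets did not overlap, but their parental calls with DHT had been chosen to differ.

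Counted by region, 514 members were kept in 0, 232 in 1, 181 in 2 and 123 in 3 RES-A DHT+ENZ libraries, and 812, 151, 59 and 28 in as many RES-A ENZ libraries. The members kept in 0 DHT+ENZ libraries were 49.0% of the set, near the 48.6% of all regions, and those kept in 3 were 11.7% against 33.0%. For ENZ the members kept in 0 libraries were 77.3% against 49.5%, and in 3 libraries 2.67% against 34.0%. More DHT+ENZ than ENZ libraries kept the region at 433 members (41.2%, against 11.2% of all regions) and fewer at 52 (4.95%, against 11.7%). The full contrast, kept in 3 of 3 RES-A DHT+ENZ libraries and 0 of 3 RES-A ENZ libraries, was met by 46 members or 4.38%, where 0.666% of all regions met it. The reverse contrast was met by 1 member, where 0.468% of all regions met it. No member was kept in 3 of 3 LNCaP DHT+ENZ libraries and 0 of 3 LNCaP ENZ libraries (0.758% of all regions), or the reverse (0.257%). Between sublines, 120 members (11.4%) were kept in 3 of 3 RES-A DHT+ENZ and 0 of 3 LNCaP DHT+ENZ libraries, where 6.54% of all regions were. The reverse was shown by 0 members, where 5.98% of all regions showed it. The choice of members by calls that differed between the sublines favoured this direction. Kept peaks in all 6 RES-A libraries with ENZ were found at 16 members (1.52%, against 29.0% of all regions). A kept peak in 1 or more RES-A DHT+ENZ libraries was present at 536 (51.0%, close to the 51.4% of all regions), and 465 (44.3%, against 14.6%) had none in any of the 12 libraries with ENZ.

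The members that ranked higher with DHT were kept more often with DHT+ENZ. At the 262 members of highest mean pileup percentile in RES-A DHT, the DHT+ENZ libraries kept 49.9% ± 5.56 and the ENZ libraries 13.9% ± 3.61 (SD, n = 3 each). At the 262 of lowest percentile they kept 18.1% ± 2.68 and 9.29% ± 1.23. The gap between these sets was larger than the spread of the replicates for DHT+ENZ, while with ENZ the highest library of the lower set (10.7%) nearly met the lowest library of the higher set (11.1%). The percentile came from libraries used for the choice, so this order is a description.

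Regions with the highest pileup percentile in RES-A DHT show the range of patterns. The first, chr1:214746566-214747230 (665 bp), had no peak of any rank in the 12 LNCaP lists. In RES-A its fold enrichment was 3.86, 4.42 and 4.24 in DMSO libraries and 10.8, 10.6 and 9.20 in DHT libraries. ENZ libraries read 6.72, 4.09 and 5.29, and DHT+ENZ libraries 6.31, 4.74 and 5.40. The DHT libraries were the highest and the ENZ and DHT+ENZ libraries overlapped, although the region was kept in 3 of 3 DHT+ENZ and 2 of 3 ENZ libraries. The fourth, chr16:78900249-78900907 (659 bp), also had no LNCaP peak. In RES-A it read 8.68, 7.97 and 8.03 in DMSO, 13.7, 13.2 and 13.2 in DHT, 7.94, 8.58 and 8.94 in ENZ, and 13.8, 10.8 and 11.99 in DHT+ENZ libraries. Here DHT+ENZ lay above ENZ and DMSO in every library and 1 of the 3 reached the level with DHT, the other two being under every DHT library.

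The eighth, chr10:13728270-13728724, had RES-A values of 7.39, 7.55 and 8.16 in DMSO, 11.4, 14.9 and 11.2 in DHT, 6.50, 9.38 and 7.05 in ENZ, and 12.03, 12.7 and 12.7 in DHT+ENZ libraries. As at the fourth region, DHT+ENZ lay above ENZ and DMSO in every library, but here the DHT+ENZ and DHT libraries overlapped. The eighth region was not without parental signal. LNCaP peaks below the kept rank had a fold enrichment of 4.47, 4.28 and 3.39 with DMSO and of 5.96 and 4.58 with DHT in replicates 2 and 3. The second, chr1:144982924-144983311 (388 bp), had no peak in LNCaP and none in RES-A DMSO or RES-A ENZ libraries. It read 5.56, 5.59 and 5.47 with DHT and 3.58, 2.44 and 2.53 with DHT+ENZ, and was kept in all 6 of these libraries. Its pileup with DHT was 72, 70 and 109 at a fold enrichment under that of the other regions named here, so the expected background at this position was high. The third, chr1:144707589-144708038 (450 bp), lay nearby on the same chromosome and had 1 LNCaP peak, 1 RES-A DMSO peak and no RES-A ENZ peak.

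**Figure D2:**
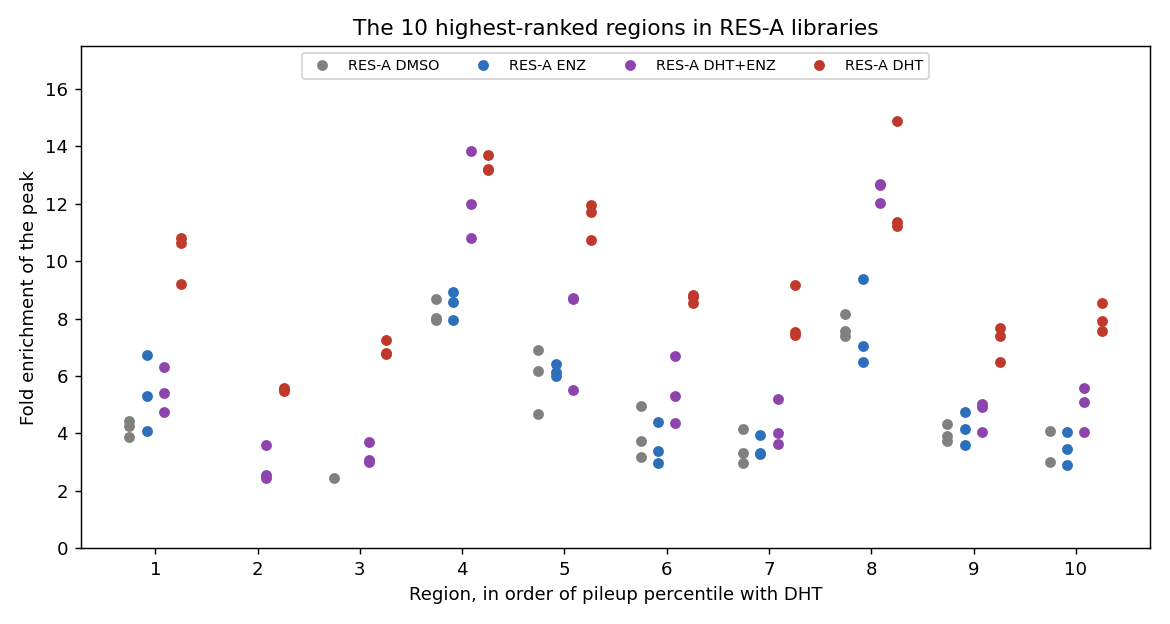
Fold enrichment of the peak (y axis, pileup over expected background) at the 10 members with the highest mean pileup percentile in RES-A DHT (x axis, in that order), with 1 point for each RES-A library that had a peak (grey DMSO, blue ENZ, purple DHT+ENZ, red DHT). At the fourth and eighth regions the DHT+ENZ libraries reached 10.8 to 13.8 and lay above all ENZ libraries, and at the first region both groups overlapped.

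**Figure D3:**
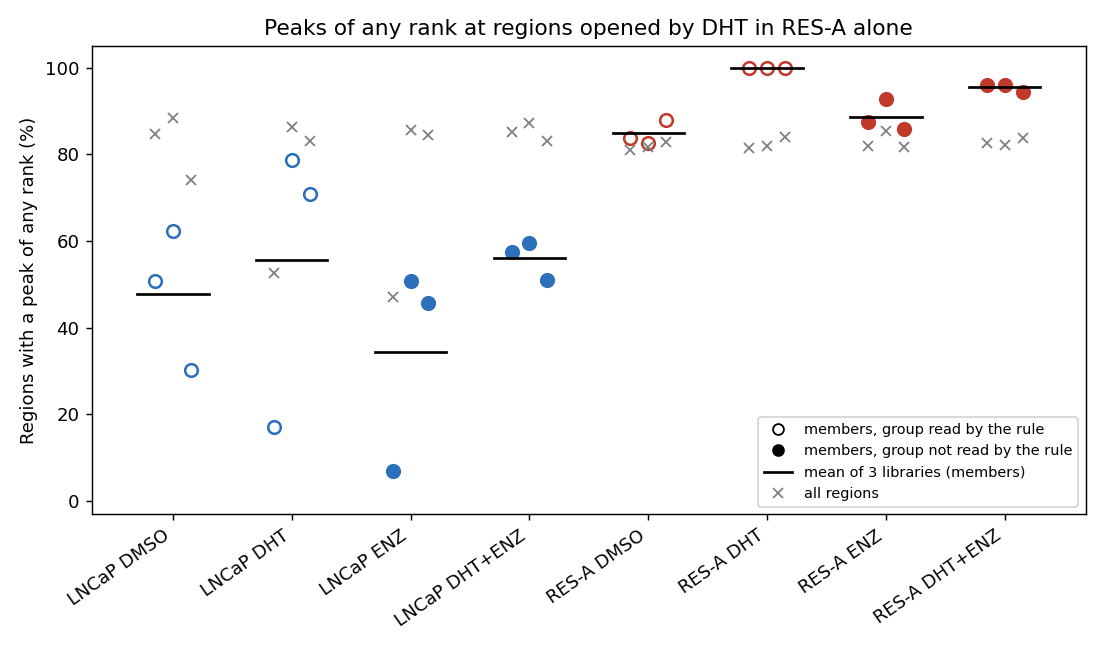
Share of the 1050 regions with a peak of any rank (y axis, percent) in each library of the 8 groups (x axis), with open circles for groups read by the rule, filled circles for the others, lines for means of 3 libraries and grey crosses for all regions. LNCaP libraries held a peak at 6.86% to 78.8% of members, in each library fewer than at all regions, and both shallow libraries were lowest.

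The parental subline often had a peak at these places that was too low to be kept. A peak of any rank was present in at least 1 of the 6 LNCaP DHT and DMSO lists at 898 members (85.5%) and in none at 152 (14.5%). Of all 35409 regions that none of these lists kept, 19.9% had no such peak, so unkept parental peaks were common there too. By library the share of members with a peak was 17.05%, 78.8% and 70.9% with DHT and 50.9%, 62.2% and 30.1% with DMSO. Over all regions it was 47.0% to 88.3% across the 24 libraries. The groups overlapped, and the lowest and highest of these shares came from the smallest and the largest of the 6 lists (82224 and 275774 peaks). More LNCaP DHT than DMSO lists had a peak at 362 members (34.5%), fewer at 233 (22.2%) and as many at 43.3%. Over the 35409 regions that no LNCaP DHT or DMSO list kept, members included, these shares were 9.62%, 47.5% and 42.9%. These lists were read by the rule, so the balance is a description. With the shallow DHT replicate 1 set aside, 92 members (8.76%) had a peak in DHT replicates 2 and 3 and in no DMSO list, against 1.16% of those regions, and 10 (0.952%, against 0.0960%) had one in 3 of 3 DHT lists and no DMSO list.

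The parental peaks lay at all depths of the lists. The best rank was 60000 or better at 194 members (18.5%) and beyond 100000 at 279 (26.6%), against 19.6% and 23.7% of the regions that no LNCaP DHT or DMSO list kept. The median fold enrichment of members with a peak was 3.30 to 4.27 over the 12 LNCaP libraries and 4.71 to 8.15 over the 12 RES-A libraries. The top of the latter, 7.68 to 8.15, came from the RES-A DHT libraries used for the choice. Over all regions with a peak the medians were 4.45 to 6.47 in LNCaP and 5.95 to 7.36 in RES-A. A peak in all 12 LNCaP lists was found at 12 members and in none at 129. The name of these regions therefore holds for ranked calls. At most of them a peak of lower rank was called in LNCaP, as at most regions that no LNCaP DHT or DMSO list kept. Members without any LNCaP DHT or DMSO peak were kept in 28.9% ± 5.22 of cases with DHT+ENZ and 14.3% ± 2.49 with ENZ in RES-A, and those with one in 30.8% ± 3.45 and 10.7% ± 1.77 (SD over 3 libraries), so the DHT+ENZ shares overlapped.

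The height of the peaks was compared in libraries the rule did not read, with limma on log2 fold enrichment, each library centred on its median, over regions with a peak in every library of the comparison. A difference counted as called at a Benjamini-Hochberg adjusted p under 0.05 over all regions fitted. In RES-A, DHT+ENZ against ENZ could be fitted at 857 of the 1050 members. Of these 15 were higher with DHT+ENZ (1.75%, where 0.377% of all 86534 regions fitted were) and 0 were lower (0.0185% of all), and 253 (29.5%) had an unadjusted p under 0.05 in limma, against 9.93% of all. The median log2 difference was 0.21 over the members fitted and 0.0054 over all regions fitted, and 708 members (82.6%) against 51.2% of all regions had a positive value. Over the 284 fitted regions opened in both sublines the median was 0.44, 24 were called higher, and 94.7% were positive.

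The 15 calls were not stable. Leaving out 1 library at a time left 0 calls without DHT+ENZ replicate 1, without DHT+ENZ replicate 2 or without ENZ replicate 2, 1 without DHT+ENZ replicate 3 or ENZ replicate 3, and 5 without ENZ replicate 1. In the same order, the regions called higher among all those fitted fell from 326 to 5, 0 and 0, to 72 and 34, and to 173. The loss was thus not particular to the members. The median over members stayed between 0.21 and 0.23. Members on chromosomes 1 and 6 (234 fitted) and elsewhere (623) had medians of 0.21 and 0.21.

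**Figure D4:**
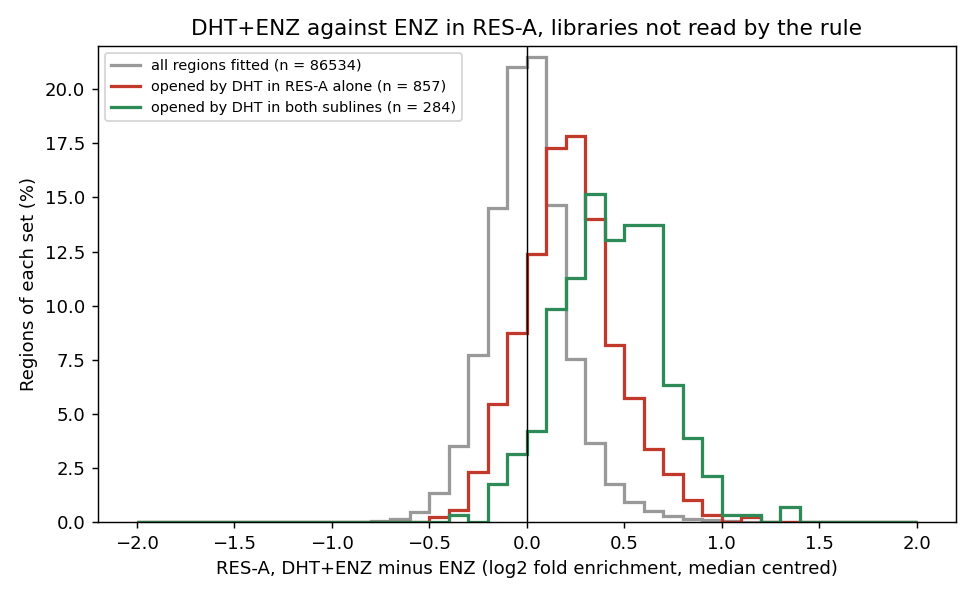
Distribution of the difference between RES-A DHT+ENZ and RES-A ENZ (x axis, log2 fold enrichment, each library centred on its median) as percent of the regions of each set per bin (y axis). The grey line is all 86534 regions fitted, red the 857 fitted members and green the 284 fitted regions opened in both sublines, with medians of 0.0054, 0.21 and 0.44.

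Among the called members, chr20:14773497-14774054 (558 bp) had the smallest p. Its fold enrichment was 6.95, 6.26 and 5.15 with DHT+ENZ and 3.03, 2.78 and 3.26 with ENZ in RES-A, and 4.39, 3.20 and 2.93 with DHT+ENZ in LNCaP. The RES-A groups did not overlap, and their log2 difference was 1.13 (SE 0.13, limma adjusted p = 0.0131). At chr2:3528290-3528624 (335 bp) the values were 8.60, 8.36 and 7.71 against 4.96, 4.55 and 4.71, a log2 difference of 0.91 (SE 0.12, limma adjusted p = 0.0170). Here the parental values had the same order, with 6.45, 6.01 and 5.87 in LNCaP DHT+ENZ against 3.39 and 3.46 in the LNCaP ENZ libraries that had a peak. Without LNCaP ENZ replicate 1, which had none, the LNCaP difference was 0.93 (SE 0.16) and did not pass the test (limma adjusted p = 0.143).

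At chr16:17478950-17479454 (505 bp), RES-A read 12.2, 10.3 and 12.4 with DHT+ENZ and 6.42, 6.57 and 6.16 with ENZ, a log2 difference of 0.98 (SE 0.14, limma adjusted p = 0.0195). LNCaP DHT+ENZ libraries were at 5.12, 4.62 and 3.997 there, all under the RES-A ENZ libraries. At chr2:135019422-135019787 (366 bp) the RES-A values were 10.1, 6.05 and 6.72 against 3.67, 3.10 and 4.20, a log2 difference of 1.15 (SE 0.17, limma adjusted p = 0.0216). In this region LNCaP had 3.03, 2.39 and 3.48 with DHT+ENZ and 3.75 and 3.49 with ENZ, the DHT+ENZ libraries being the lower ones. At chr22:30337114-30337670 (557 bp), RES-A read 7.21, 6.09 and 4.85 against 3.60, 3.32 and 3.88, a log2 difference of 0.85 (SE 0.14, limma adjusted p = 0.0296). Each of these 5 was lost in at least 1 fit that left out a library, since 0 calls were left in 3 of those fits.

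The same comparison in LNCaP could be made at few members, because LNCaP ENZ replicate 1 had a peak at only 72 of them. Over 49 members the median log2 difference was -0.036 (all 45702 regions -0.020) and 17 were positive (34.7%, against 46.0% of all regions). No member and no region at all was called by limma (0% of all regions in either direction). At an unadjusted p under 0.05 in limma there were 2 members (4.08%) and 2119 regions (4.64%). With that library left out, 305 members could be fitted in place of 49, and the direction turned. The median was 0.14 and 214 were positive (70.2%), against a median of -0.0067 and 48.6% positive over all regions, and again 0 were called. Both the set of members and the set of libraries changed in this turn, and the part of each was not tested.

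Whether the androgen effect under ENZ differed between the sublines was tested as an interaction in limma. Over 48 members the median difference of differences, RES-A minus LNCaP, was 0.14 (all 40879 regions 0.018). Of the 48, 38 were positive (79.2%, against 53.0% of all regions), and 0 members and 0 regions (0% of all in either direction) were called. At an unadjusted p under 0.05 limma gave 2 members (4.17%) and 1769 regions (4.33%), which were near each other. Without LNCaP ENZ replicate 1, 295 members could be fitted, and the median was 0.022 (all 73753 regions 0.012). Of these members 53.9% were positive, against 52.1% of all regions, and 0 members and 0 regions were called. Over these 295 members the median log2 difference between DHT+ENZ and ENZ was 0.19 in RES-A and 0.15 in LNCaP, with 79.7% and 72.9% positive. The interaction fit called no region at all, so its lack of calls does not show that the sublines were alike at the members. Members with a peak in all 11 of those libraries thus had on balance positive values in both sublines. These are members with peaks of any rank in LNCaP, and the members without such peaks are not covered by this reading.

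The level with DHT+ENZ was higher in RES-A than in LNCaP at many members, a direction that their choice favoured. Members had been kept with DHT in RES-A and barred from the LNCaP DHT and DMSO lists. The regions opened in both sublines had been kept with DHT in both. Of 399 members with a peak in all 6 libraries, 156 were higher in RES-A (39.1%, where 11.1% of all 77940 regions were) and 3 lower (0.752%, where 12.3% were) by limma at an adjusted p under 0.05. The median log2 difference was 0.37, against -0.013 over all regions and -0.022 over 366 regions opened in both sublines, and 336 members had a positive value. The number higher was 120 to 165 with 1 library left out. On chromosomes 1 and 6, 38 of 110 members fitted were higher and the median was 0.22, and on the other chromosomes 118 of 289 were higher and the median was 0.40.

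Kept calls were also compared between the sublines. Fisher's exact test of the 6 RES-A against the 6 LNCaP libraries with ENZ (DHT+ENZ and ENZ), over regions kept in 3 to 9 of the 12, was possible at 232 members. It called 39 more often kept in RES-A (16.8%, where 20.4% of all 40274 regions tested were) and 0 more often in LNCaP (14.2% of all) at an adjusted p under 0.05. At an unadjusted p under 0.05 Fisher's exact test also gave 39 in all. Of the 232, 204 were kept in 3 to 6 RES-A and 0 LNCaP libraries, so members passed the filter almost always through RES-A, and neither count nor direction is a result about the members. The test also took DHT+ENZ and ENZ libraries as 6 of a kind. The 39 comprised 15 members kept in 6 of 6 RES-A and 0 of 6 LNCaP libraries (Fisher's exact test, adjusted p = 0.0127) and 23 in 5 and 0 and 1 in 6 and 1 (Fisher's exact test, adjusted p = 0.0437). Without RES-A ENZ replicate 1, 2 or 3 the count was 67, 70 or 83.

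The members were spread over the autosomes and X, with 3 on other contigs and an uneven share of chromosomes 1 and 6. Chromosome 1 held 166 (15.8%, against 10.5% of all regions and 6.76% of the regions opened in both sublines) and chromosome 6 held 134 (12.8%, against 5.53% and 5.56%). Chromosome 10 held 69 (6.57%, against 5.03%) and chromosome 16 held 40 (3.81%, against 2.74%), whereas chromosome 3 held 57 (5.43%, against 7.69%) and chromosome 4 held 41 (3.90%, against 5.93%). The kept peaks of all regions also differed between the sublines: chromosome 1 took 13.6% ± 0.083 of kept peaks in RES-A and 10.1% ± 0.22 in LNCaP, chromosome 6 took 6.69% ± 0.095 and 3.99% ± 0.20, and chromosome 4 took 4.25% ± 0.083 and 6.31% ± 0.23 (SD over 12 libraries of each subline). This difference moved with the place of the members, and its part in their choice was not tested. The members on chromosomes 1 and 6 (300) were kept in 31.6% ± 2.91 of cases with DHT+ENZ and 11% ± 0.33 with ENZ in RES-A, and the other 750 in 30.2% ± 4.03 and 11.3% ± 2.50 (SD over 3 libraries), which overlapped.

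**Figure D5:**
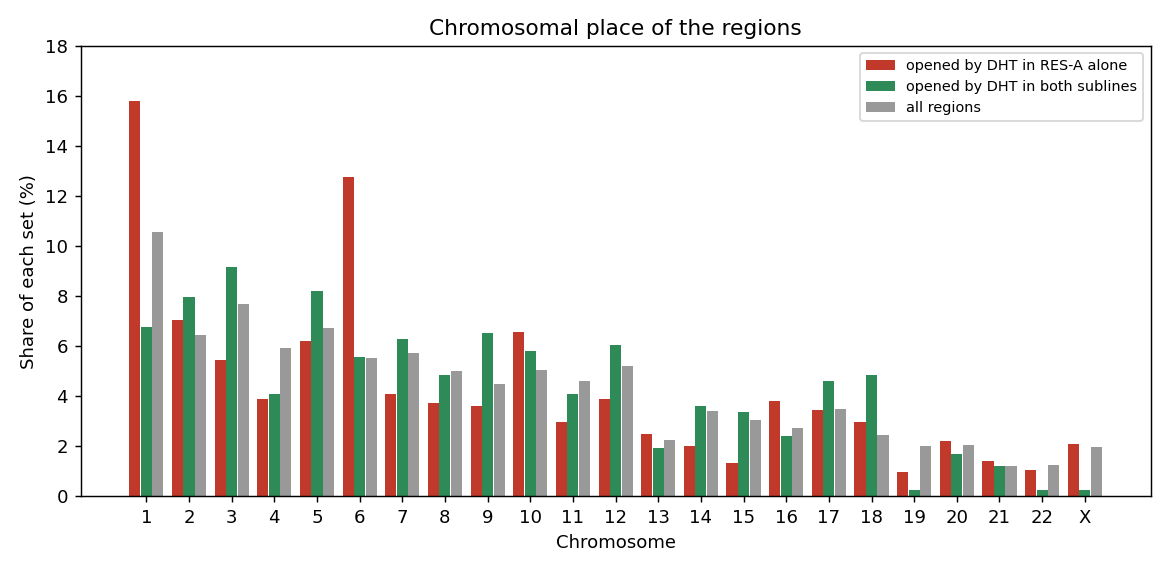
Share of each set of regions (y axis, percent) by chromosome (x axis): the 1050 regions opened by DHT in RES-A alone in red, the 414 opened in both sublines in green, and all 117322 regions in grey. Chromosomes 1 and 6 held 15.8% and 12.8% of the regions opened in RES-A alone, more than of either other set.

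Spacing within chromosomes was measured for the members only, with no other set of regions for comparison. Another member lay within 100 kb of 181 members (17.2%) and within 1 Mb of 674 (64.2%). The densest group had 6 members over chr6:53005214-53167249, and 4 lay over chr1:19751130-19785949. Of windows of 10 Mb, 4 held the highest number, 14 members each, on chromosomes 1, 6 and 16. Members were 2.66% to 3.64% of the regions there, against 0.895% of all regions, but these windows were picked for their counts. A window on chromosome 6 that starts at 80000001 held 13 members among 214 regions (6.07%), and the one that starts at 50000001 held 13 among 301 (4.32%). The median length was 424.5 bp (208 to 1034), against 543.5 bp for the regions opened in both sublines and 432 bp for all regions. The median distance to the nearest region kept in all 24 libraries was 61010 bp, close to that of all regions (62444 bp), and 19.8% of members lay within 10 kb of such a region, against 15.2% of all regions and 17.4% of those opened in both sublines.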

How the data were processed

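FAIRE-seq was performed by the authors on LNCaP and RES-A cells in 8 groups of 3 biological replicates. Reads of 50 bp were aligned to hg19 with BWA 0.7.8-r455, duplicates were handled with Picard 1.118 and peaks were called in each library with MACS2 2.1.0 (versions from the submitters' processing notes). The options of MACS2 and a control library were not given in the sources used here. The deposited lists gave, per peak, its length, its pileup (a coverage signal, not scaled between libraries), its fold enrichment (a ratio to the expected local background) and the −log10 of its p-value and q-value, as the authors' caller wrote them. Every list ended at a q-value of 0.05. No read counts were used, so depth was taken from the lowest background, (pileup + 1) / fold − 1.

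Peaks were kept and merged as described above. The value of a region in a library was that of its highest-pileup peak of any rank. Kept shares were given as mean ± SD over libraries. Fold enrichment was tested on the log2 scale (limma 3.58.1, R 4.3.3, no pseudocount, two-sided), and kept calls with two-sided Fisher's exact test (scipy 1.17.1), both adjusted by the Benjamini-Hochberg method over all regions fitted and both tested on simulated data. With 3 libraries a group, an exact permutation test of a single value cannot go below p = 0.1. Regions were named by rule: the 10 members of highest mean pileup percentile in RES-A DHT (values given for 5), the 5 members of smallest p called in each direction in RES-A DHT+ENZ against ENZ, and those nearest the limit of rank (1 given on each side). Chromosome ends differed from GRCh38 (15 of 24 chromosomes had a peak beyond its end), so genes, motifs and sequences at the regions were not analysed here. Replicate lists shared at most 0.034% identical peaks. The members and the tests were chosen with earlier results of these data known. Alternatives were the number and order of kept peaks, the q-value, autosomes, overlap, normalization, pileup in place of fold, filling absent peaks, a replicate block and leaving out each library. Reading a library left out of the rule was added after seeing the data.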

Additional observations from a re-analysis of the deposited data

How the results depend on the processing

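The shares of members kept moved by less than 1 SD under the other numbers, orders and filters of peaks. With 1 library left out, of the group or (added after seeing the data) of the rule, they were 25.3% to 35.3% in RES-A DHT+ENZ, 10.1% to 16.9% in RES-A ENZ, 0.476% to 1.55% in LNCaP DHT+ENZ and 0.571% to 2.05% in LNCaP ENZ. RES-A ENZ moved by over 1 SD without RES-A DMSO replicate 1, 2 or 3 (15.8%, 14.6% and 16.9%), and RES-A DHT+ENZ without RES-A DMSO replicate 1 or 3 (35.2%, 35.3%) or DHT replicate 3 (25.3%), and LNCaP DHT+ENZ without LNCaP DHT replicate 1 or 2 (1.39%, 1.55%). The members themselves changed more than their number. There were 783 with 25000 peaks kept (127 overlapping the 1050), 939 with peaks ordered by −log10 p (549 overlapping), 1050 at a q-value of 0.01 (1049), 1052 on autosomes (971) and 1187 where a peak had to cover 50% of the region (1023), and 1054 to 1486 without 1 library. Members with an unkept parental peak numbered 747 to 1034, and 891 to 1261 without 1 library.

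The count of members higher in RES-A DHT+ENZ than ENZ (15) was 8 with quantile normalization, 55 with log2 pileup, 18 with absent peaks filled at the floor (4 of them among the 15) and 0 to 5 without 1 library. Over all regions fitted the count (326) was 204, 1034 and 541 in these settings and 0 to 173 without 1 library. RES-A above LNCaP with DHT+ENZ (156) was 508 of 988 members with absent peaks filled, and 120 to 165 without 1 library. Over all regions the filled count was 15241 of 107412, against 8627 of 77940 in the main fit, and 6592 to 7979 without 1 library. Fisher's exact test (39) called 5 with peaks ordered by −log10 p, 15 when regions kept in 1 or more of the 12 libraries were tested, and 39 to 83 without 1 library. Over all regions it called 8227 more often kept in RES-A, and 4020, 4763 and 8537 to 9124 in these settings. The LNCaP contrast and the interaction stayed at 0 calls under every alternative, 0 to 0 without 1 library, at members and over all regions. Their medians over members were -0.15 to 0.14 and 0.022 to 0.25 without 1 library. With absent peaks filled the interaction median was 0.55 over 922 members (all regions 0.37). Replicate numbers paired the libraries weakly at most. Same-number correlations were 0.019 to 0.068 in RES-A, -0.025 to 0.15 in LNCaP and -0.012 to 0.064 with DHT+ENZ. Those of different numbers were -0.063 to 0.020, -0.15 to 0.063 and -0.057 to 0.056. With a replicate block 12, 154, 0 and 0 members were called in the 4 limma comparisons in the order RES-A, RES-A against LNCaP, LNCaP and interaction, and 0 in the blocked test of kept calls (McNemar's exact test), which called 0 of all regions too and so says nothing about the members. Depth limited LNCaP ENZ replicate 1 and LNCaP DHT replicate 1, where an absent peak does not show a closed region. The causes of the changes were not tested.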
